A study of Homo sapiens with 9 samples.

Results

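The 10 genes described here are widely used readouts of the ERK branch of MAP kinase signalling, and they were chosen by symbol from the 48162 genes of the deposited table. They are DUSP4, DUSP5, DUSP6, SPRY2, SPRY4, SPRED1, ETV4, ETV5, FOSL1 and PHLDA1. All 10 passed the filter on low counts, as did 15776 genes of the table in all. The cells were SKMEL28, an established human melanoma line known to carry an activating BRAF mutation, transduced with lentivirus carrying short hairpins. The shCont cells received a hairpin against GFP, the shp16 cells one against p16 (CDKN2A), and the shp16+shATR cells hairpins against both p16 and the checkpoint kinase ATR, each with 3 libraries. Every group was grown in 5% serum and selected for 3 days in 1 μg/ml puromycin, so that all cells, controls included, carry a hairpin, a virus and the drug selection. Nothing in the labels says that the libraries of a group came from separate cultures. The paper describes its data on the message of lanosterol synthase (LSS) as a single experiment with technical replicates. Sequencing is the only method for message levels in its methods, so that description likely covers the libraries used here. The p-values therefore measure only the spread between libraries, which is likely technical. They do not show that a difference would recur in separate cultures. The labels do not say which ATR hairpin was used, and all libraries come from 1 cell line. No second hairpin is named for shCont or shp16. A difference in the number of hairpins thus cannot be told apart from the knockdown of ATR.

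In cells with an active BRAF, the kinases MEK1 and MEK2 (MAP2K1, MAP2K2) phosphorylate ERK, and ERK raises the transcription of a set of genes within hours. Part of that set feeds back on the pathway: the dual-specificity phosphatases remove phosphate from ERK, and the Sprouty and SPRED proteins act upstream, at the step from receptors to RAS. Another part passes the signal on: ETV4 and ETV5 are ETS-family transcription factors, and FOSL1 (FRA-1) is a subunit of the AP-1 transcription factor. The messages measured here are used as a readout of ERK output because they decline after MEK or BRAF inhibition in such cells. ERK phosphorylation itself was not measured in these libraries.

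Promoter sequences are shown for DUSP6 and SPRY4, which fell together in shp16 and have a window in RefSeq. The windows hold the 250 bases before and the 50 after the annotated start, from RefSeq on GRCh38.p14, and are written 5′ to 3′ along the gene, which lies on the minus strand for both. Capitals mark copies of an octamer bound by CIC (Capicua), a repressor that ERK signalling inactivates. The window of DUSP6 is chr12:89352452-89352751 and that of SPRY4 is chr5:142324198-142324497.
DUSP6: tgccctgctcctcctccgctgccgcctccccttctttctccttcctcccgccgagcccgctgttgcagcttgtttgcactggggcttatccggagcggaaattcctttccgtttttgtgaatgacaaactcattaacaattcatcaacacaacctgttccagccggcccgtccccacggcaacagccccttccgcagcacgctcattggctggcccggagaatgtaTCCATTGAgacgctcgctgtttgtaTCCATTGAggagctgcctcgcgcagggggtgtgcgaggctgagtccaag
SPRY4: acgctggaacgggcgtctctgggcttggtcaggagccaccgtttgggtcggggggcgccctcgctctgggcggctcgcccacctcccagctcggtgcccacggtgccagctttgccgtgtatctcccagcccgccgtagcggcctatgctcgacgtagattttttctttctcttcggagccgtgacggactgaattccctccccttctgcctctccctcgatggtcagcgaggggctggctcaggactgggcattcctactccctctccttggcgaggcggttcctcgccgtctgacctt
The octamers searched on both strands were TGAATGAA, TGAATGGA, TCAATGAA and TCAATGGA. The DUSP6 window held TCAATGGA on the minus strand of the window (read as TCCATTGA) 2 times, beginning 24 bases before the start and again at base 2 of the transcript. One or more of the octamers stood in 3.77% of the 35116 RefSeq promoter windows of this length, and 2 or more stood in 0.327%. The SPRY4 window, printed without capitals, held none of these letters. Windows were found for 5 of the 10 members, the others being SPRY2, SPRED1 and PHLDA1. The ETS core CCGGAA, present in 17.2% of all windows, stood in those of SPRY2 and PHLDA1, and the AP-1 letters TGANTCA, present in 7.71%, in none of the members' windows. These matches are letters in a window and do not show binding.

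The libraries held between 17314662 and 23588174 counts. In shp16, CDKN2A was below the shCont range in every library, but its difference of -0.48 on the log2 scale did not pass the test (adjusted p = 0.0723). In shp16+shATR, CDKN2A also lay wholly below shCont, and its difference of -0.57 passed. That call was lost without library a, b or c. ATR fell by 1.12 in shp16+shATR against shp16 (adjusted p = 0.0128), and that call was lost without shp16 replicate 1 or without library a, b or c of shp16+shATR. Replicate 1 of shCont and replicate 1 of shp16 stood apart from their groups. The chi-square per degree of freedom against the other libraries of the same group was 78.4 and 95.7 for the former and 43.3 and 42.6 for the latter, whereas it lay between 1.96 and 10.9 in all other pairs within a group. The 8 markers of melanoma cells were all detected, with a summed level of 13386 to 15002 CPM (the count scaled by library size) in shCont, 7769 to 13015 in shp16 and 10941 to 13044 in shp16+shATR. Single melanoma markers differed in direction. Their log2 fold changes ran from -0.68 to 0.09 in shp16 against shCont and from -0.88 to 0.67 in shp16+shATR against shp16. Of 5 markers of other cell types, 4 had a row in the table. Their summed level was 0.257 to 0.549 CPM in shCont, 4.34 to 5.26 CPM in shp16 and 2.00 to 5.08 CPM in shp16+shATR. The leukocyte marker PTPRC was at 0 in all 9 libraries and EPCAM stayed below 0.55 CPM. The basal keratins KRT5 and KRT14 made up the rest, with KRT5 at 0 in every shCont library and at 2.03 to 2.99 CPM in shp16. Of these markers, 2 were tested, and both were called higher than shCont in shp16 and in shp16+shATR. Neither was called in shp16+shATR against shp16. The part of the keratins in the results below was not tested. The share of cells with a message and the amount per cell cannot be told apart in bulk RNA.

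Per length of transcript, the 10 genes spanned more than an order of magnitude and kept much of their order in every group. DUSP4 had the highest level in each group, at 113 ± 6.29 FPKM (SD, n = 3) in shCont, 103 ± 2.10 FPKM in shp16 and 90.1 ± 3.61 in shp16+shATR. FPKM scales the count by transcript length and library total. ETV5 came next, at 83.6 ± 10.8 FPKM in shCont, 82.9 ± 1.65 FPKM in shp16 and 87.7 ± 0.251 in shp16+shATR. DUSP4 and ETV5 did not overlap in shCont or shp16, but they did in shp16+shATR. DUSP5 was the lowest in each group, at 7.68 ± 0.236 FPKM in shCont, 6.57 ± 0.515 FPKM in shp16 and 8.61 ± 1.10 in shp16+shATR. Between these extremes, the ranges of PHLDA1 and ETV4, of ETV4 and SPRY2, of DUSP6 and SPRY4 and of SPRED1 and DUSP5 overlapped as neighbours in shCont, and such neighbours were not ordered beyond their spread. FOSL1 followed ETV5 in shCont (50.8 FPKM) and in shp16+shATR (60.3 FPKM), but in shp16 (36.9 FPKM) ETV4 stood above it at 45.1 FPKM without overlap.

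Of the 10 genes, 3 were lower in shp16 than in shCont (DUSP6, SPRY4 and FOSL1) and none was higher, at an adjusted p under 0.05. Over all tested genes, 7.59% were called lower and 7.23% higher in that comparison. The median log2 fold change of the 10 genes was -0.21, beside -0.02 over all genes. In 5 of the 10 every shp16 library lay below every shCont library, and in 0 every one lay above, where 16.8% of all genes were wholly below and 16.8% wholly above. Adding the ATR hairpin raised 2 of them, DUSP6 and FOSL1, and lowered none. Against shp16, 2.73% of all genes were called higher and 3.49% lower in shp16+shATR. The median of the 10 was 0.24, beside 0.00214 over all genes, 6 lay wholly above shp16 and 1 wholly below, and the shares over all genes were 17.6% and 20.1%. Between shp16+shATR and shCont, 1 gene was called higher (SPRED1) and 1 lower (DUSP4), where 10.9% of all genes were called higher and 12.7% lower. The median there was 0.08, beside -0.02 over all genes, with 1 gene wholly above and 2 wholly below, and the shares over all genes were 20.0% and 21.5%. The share of members called between shp16+shATR and shCont is thus near the background. All 3 comparisons share libraries, so their values are given side by side and are not independent of each other.

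**Figure D1:**
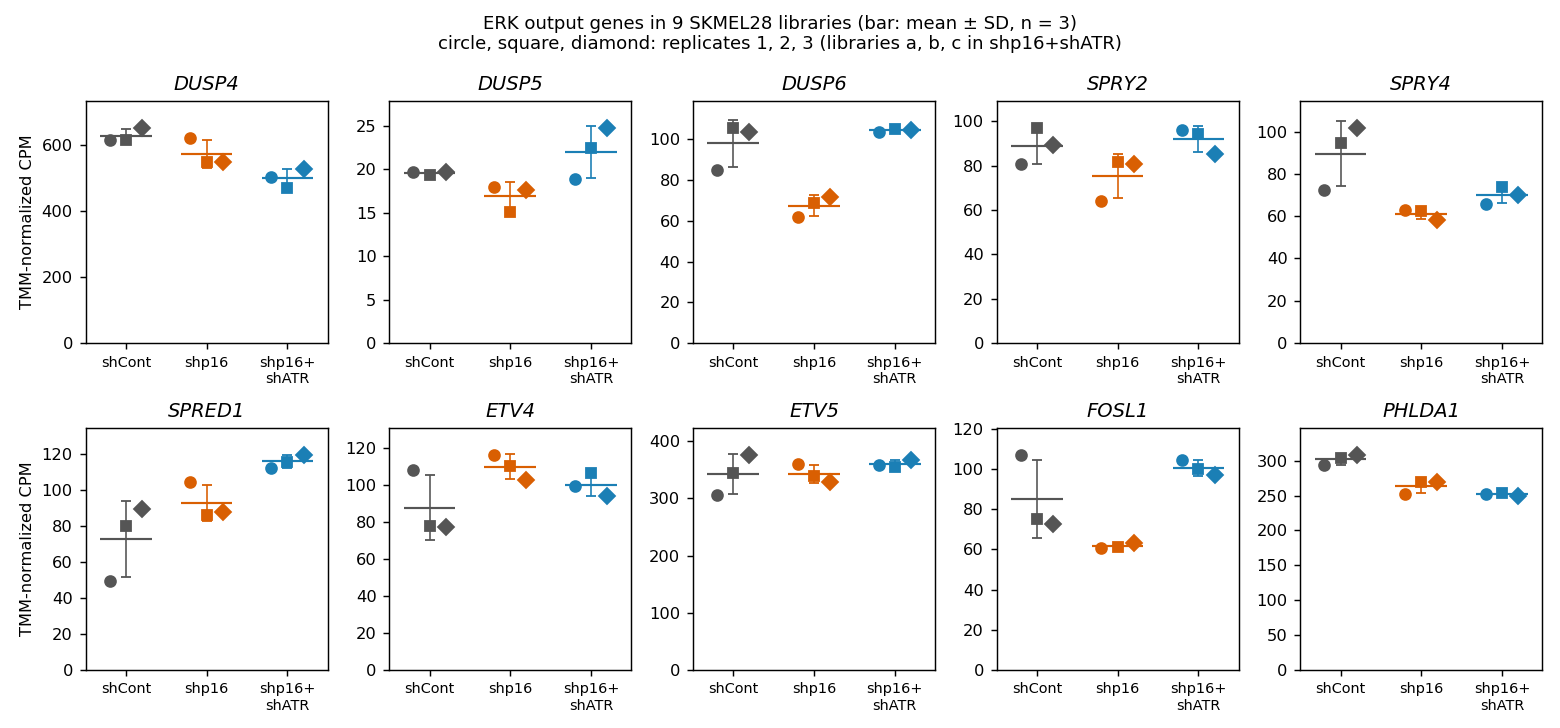
TMM-normalized CPM (y axis, from 0) of the 10 ERK output genes in each of the 9 libraries, by group (x axis), with circle, square and diamond for replicates 1, 2 and 3 or libraries a, b and c, a horizontal bar for the mean and a vertical bar for the SD (n = 3). DUSP6 drops from 84.8 to 106 CPM in shCont to 61.7 to 71.8 in shp16 and stands at 104 to 105 in shp16+shATR, while ETV5 stays within 307 to 377 CPM throughout.

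Among the phosphatases, DUSP6 had the clearest pattern. DUSP6 (also MKP-3) is a cytoplasmic phosphatase that acts on ERK with high selectivity, and its gene lies on chromosome 12 (89347232 to 89353271, GRCh38). In shCont its 3 libraries stood at 84.8, 106 and 104 CPM after TMM normalization, and in shp16 at 61.7, 68.8 and 71.8 CPM. Each shp16 library was below each shCont library. The level fell by 31.3%, a log2 fold change of -0.54 ± 0.11 (SE), with a 95% interval of -0.79 to -0.29 and an adjusted p of 0.00828. In shp16+shATR the libraries read 104, 105 and 105 CPM, all above shp16. That rise was 0.63 ± 0.11 on the log2 scale, or 55.0% (adjusted p = 0.00808). Against shCont the shp16+shATR libraries overlapped, with a difference of 0.09 and a 95% interval of -0.15 to 0.34 on the log2 scale (adjusted p = 0.604). Without shCont replicate 1, the lowest of its group for DUSP6, the fall was 0.64 instead of 0.54.

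DUSP5, a nuclear ERK phosphatase on chromosome 10, was measured at 19.7, 19.4 and 19.7 CPM in shCont, 18.0, 15.0 and 17.6 CPM in shp16 and 18.9, 22.5 and 24.8 CPM in shp16+shATR. The shp16 libraries lay below both other groups with no overlap. Neither difference passed the test, with -0.22 ± 0.13 (SE) against shCont (adjusted p = 0.297) and 0.39 ± 0.13 for shp16+shATR against shp16 (adjusted p = 0.109). DUSP5 rested on the fewest reads of the 10, between 317 and 519 counts per library. DUSP4, another nuclear phosphatase of ERK and related kinases, on chromosome 8, took a different course. Its level was 615, 615 and 652 CPM in shCont, 622, 549 and 549 CPM in shp16 and 501, 471 and 526 CPM in shp16+shATR. The groups with and without ATR hairpin did not overlap. DUSP4 differed by -0.13 between shp16 and shCont (adjusted p = 0.441) and by -0.20 between shp16+shATR and shp16 (adjusted p = 0.317), and its level in shp16+shATR was 20.4% lower than the control level (log2 fold change -0.33 ± 0.10, adjusted p = 0.0392). The last call was lost when shCont replicate 2 or 3, shp16 replicate 2 or 3, or any of the shp16+shATR libraries was left out, with adjusted p of 0.0638 to 0.161. DUSP6 therefore stood above its shp16 level in shp16+shATR, whereas DUSP4 stood below its own by a difference that did not pass. The 2 genes were not tested against each other.

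The Sprouty and SPRED inhibitors did not share one course. SPRY4, on chromosome 5, read 72.2, 94.7 and 102 CPM in shCont and 63.0, 62.4 and 58.2 CPM in shp16. None of the shp16 libraries reached the shCont range, and the level fell by 31.7% (log2 fold change -0.55 ± 0.13, adjusted p = 0.0159). In shp16+shATR it read 65.9, 73.6 and 70.1 CPM, each above shp16, but the difference of 0.19 ± 0.13 did not pass the test (adjusted p = 0.459). Against shCont, SPRY4 in shp16+shATR differed by -0.36 (adjusted p = 0.0653), with overlap at shCont replicate 1. The call in shp16 was lost without shCont replicate 2 (adjusted p = 0.0549), shp16 replicate 2 (0.0540) or shp16 replicate 3 (0.0711), and without shCont replicate 1 the fall was 0.69. SPRY2, the best known Sprouty in signalling from receptor tyrosine kinases, read 80.8, 97.1 and 89.2 CPM in shCont, 63.9, 81.6 and 80.5 CPM in shp16 and 96.0, 94.5 and 85.3 CPM in shp16+shATR. Its shp16 libraries were below all those of shp16+shATR, and they overlapped with shCont. The differences were -0.24 ± 0.12 in shp16 against shCont (adjusted p = 0.218) and 0.29 ± 0.12 in shp16+shATR against shp16 (adjusted p = 0.219).

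SPRED1 binds neurofibromin, the RAS GTPase-activating protein NF1, and brings it to the membrane. Its level was 49.0, 79.8 and 89.5 CPM in shCont, 104, 86.0 and 87.4 CPM in shp16 and 112, 115 and 120 CPM in shp16+shATR. The shp16+shATR libraries stood above all others, and the low value of shCont replicate 1 widened the control range. Against shCont, SPRED1 was higher in shp16+shATR by 59.1% (log2 fold change 0.67 ± 0.18, adjusted p = 0.0211). The steps from shCont to shp16 (0.35 ± 0.18, adjusted p = 0.232) and from shp16 to shp16+shATR (0.32 ± 0.18, adjusted p = 0.363) did not pass. Leaving out shCont replicate 1 lowered the difference between shp16 and shCont to 0.12 and that between shp16+shATR and shCont to 0.45, which still passed (adjusted p = 0.00322). Leaving out library a, b or c ended the call against shCont (adjusted p = 0.0563 to 0.0704). SPRED1 and SPRY4 thus differed in direction in shp16 against shCont, a difference in direction that was not tested as such.

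**Figure D2:**
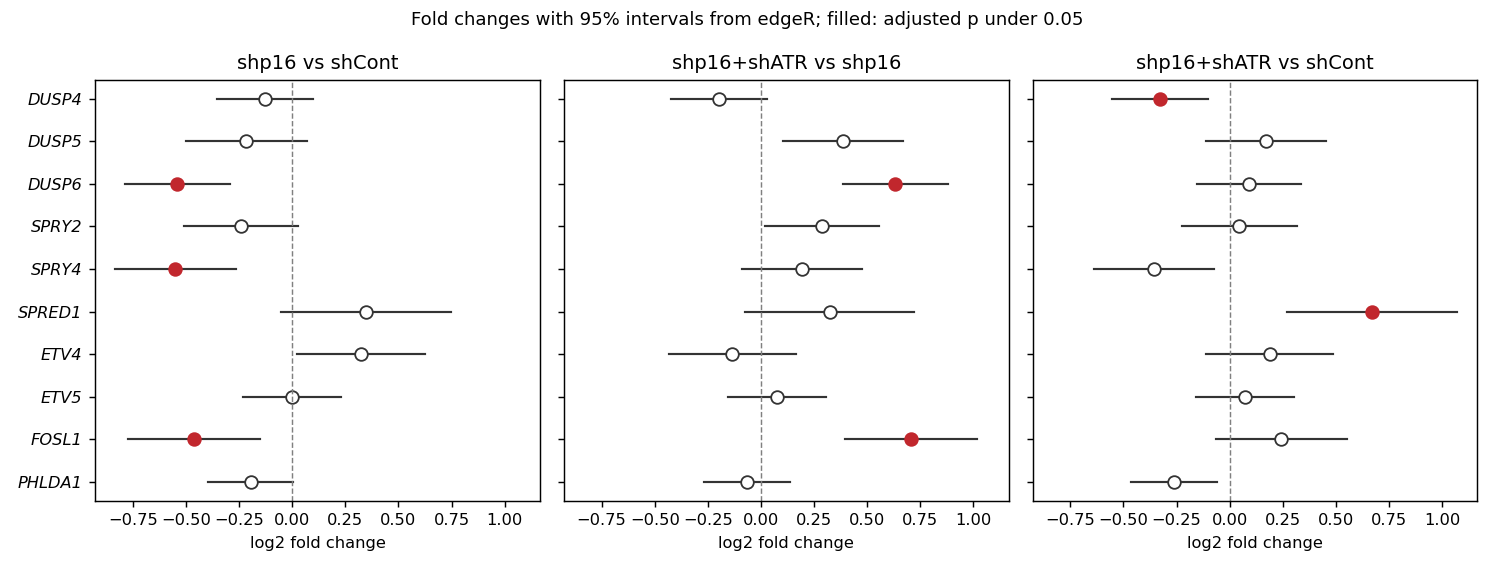
Log2 fold change (x axis) of each of the 10 genes (y axis) in the 3 comparisons, with 95% intervals from edgeR and filled points for an adjusted p under 0.05. DUSP6 and FOSL1 are filled on the lower side in shp16 vs shCont (-0.54 and -0.46) and on the higher side in shp16+shATR vs shp16 (0.63 and 0.71), while SPRED1 and DUSP4 are filled in shp16+shATR vs shCont alone (0.67 and -0.33).

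With all libraries, FOSL1 passed in both comparisons with shp16, whereas the ETS factors ETV4 and ETV5 passed in none. The calls of FOSL1 and ETV4 depended on single libraries. FOSL1, on chromosome 11, read 107, 75.2 and 72.6 CPM in shCont and 60.8, 61.2 and 63.3 CPM in shp16. Each shp16 library was below each shCont library, and the control group was spread by its replicate 1. FOSL1 fell by 27.4% (log2 fold change -0.46 ± 0.14, adjusted p = 0.0483). Without shCont replicate 1 the fall was 0.27, which passed the test (adjusted p = 0.0123). The call was lost without any one of the shp16 or shp16+shATR libraries (adjusted p = 0.0776 to 0.134). In shp16+shATR, FOSL1 read 105, 100 and 97.1 CPM, all above shp16. It rose by 63.1% over shp16 (log2 fold change 0.71 ± 0.14, adjusted p = 0.0139), the largest difference among the 10 genes in any of the comparisons. This call was lost without any one of the shp16 or shp16+shATR libraries (adjusted p = 0.0511 to 0.0725), while the difference stayed between 0.68 and 0.73. Against shCont, FOSL1 in shp16+shATR was inside the control range (0.24 ± 0.14, adjusted p = 0.243). Without shCont replicate 1 it was 0.44 higher than shCont (adjusted p = 0.000355).

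ETV4 read 108, 77.8 and 77.3 CPM in shCont, 117, 110 and 103 CPM in shp16 and 99.7, 107 and 94.1 CPM in shp16+shATR. It was 0.32 ± 0.14 higher in shp16 than in shCont on the log2 scale, which did not pass (adjusted p = 0.137), and the groups overlapped at shCont replicate 1. Without that library ETV4 was higher by 0.50 and passed (adjusted p = 0.000852), the only one of the 10 called higher in shp16. In shp16+shATR, ETV4 differed by -0.14 from shp16 (adjusted p = 0.651) and by 0.19 from shCont (adjusted p = 0.356). Without shCont replicate 1 the difference from shCont was 0.36 and passed (adjusted p = 0.00371). ETV5 read 307, 344 and 377 CPM in shCont, 360, 340 and 328 CPM in shp16 and 359, 356 and 367 CPM in shp16+shATR. The groups overlapped in every comparison, and the log2 fold change of shp16 against shCont had a 95% interval of -0.23 to 0.23. The interval of ETV5 does not reach the estimated changes of DUSP6, SPRY4 or FOSL1 in the same comparison; the genes' differences were not tested against each other.

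PHLDA1, a pleckstrin-homology-like protein that responds to growth factor signals, lies on chromosome 12 like DUSP6. It read 293, 304 and 309 CPM in shCont, 252, 270 and 269 CPM in shp16 and 252, 253 and 250 CPM in shp16+shATR. Both groups with a p16 hairpin lay wholly below shCont. Neither difference from shCont passed the test, with -0.20 ± 0.09 for shp16 (adjusted p = 0.179) and -0.26 ± 0.09 for shp16+shATR (adjusted p = 0.0598). The pattern of PHLDA1 over the 9 libraries was closest to that of DUSP4, with a root mean square distance of 0.104 between their centred log2 CPM, the smallest among the 10 genes. The largest, 0.505, was between SPRED1 and FOSL1. This distance is not scaled, so it also reflects the size of the changes, and genes that change little lie close together.

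**Figure D3:**
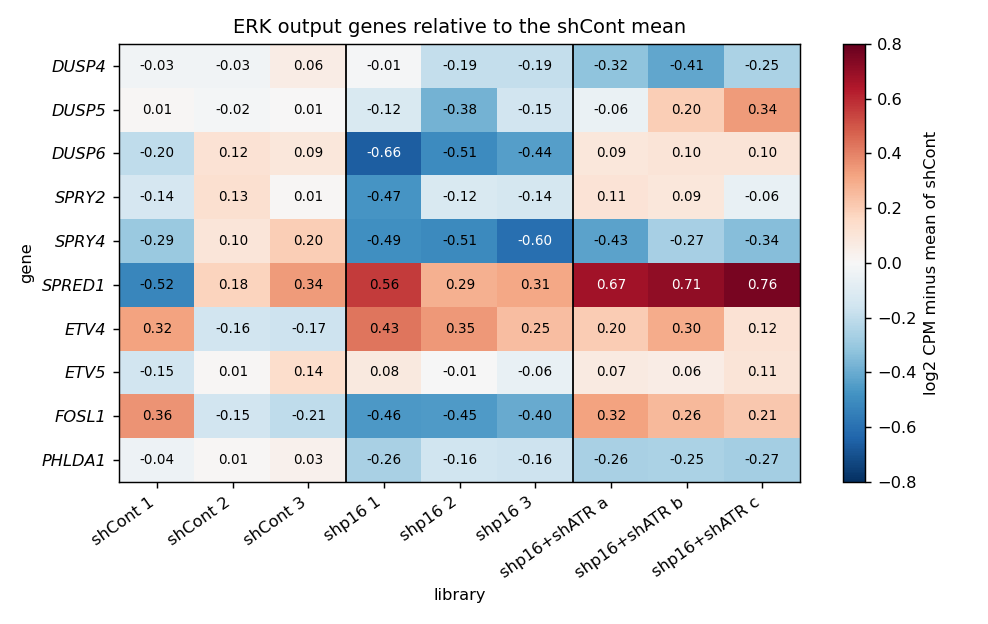
Heat map of log2 CPM minus the mean of the 3 shCont libraries for the 10 genes (rows) in the 9 libraries (columns), red above and blue below, with each value printed in its cell. DUSP6, SPRY4 and FOSL1 are blue in all 3 shp16 libraries, DUSP6 and FOSL1 return above 0 in shp16+shATR while SPRY4 does not, and shCont replicate 1 stands off in SPRED1 (-0.52), ETV4 (0.32) and FOSL1 (0.36).

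Messages of the kinase cascade above these genes were tested as well. Of 16 genes for adapters, RAS proteins, RAF, MEK and ERK, 1 was called higher and 0 lower in shp16 against shCont. The one that rose was KSR1, a scaffold for RAF and MEK (log2 fold change 1.19, adjusted p = 0.00172). KSR1 rested on few reads, with 37 to 46 counts per library in shCont and 79 to 103 in shp16. Its mean was 2.03 CPM in shCont and 4.62 CPM in shp16. Over all tested genes, 7.23% were called higher and 7.59% lower in shp16 against shCont. For shp16+shATR the shares were 2.73% and 3.49% against shp16, and 10.9% and 12.7% against shCont. In shp16+shATR against shp16, 0 rose and 1 fell, the adapter GRB2 (-0.47, adjusted p = 0.0150), a call lost without shp16 replicate 2 or 3 or without library a or b. Against shCont, KSR1 was higher (1.22) and ARAF and GRB2 were lower (-0.50 and -0.33) in shp16+shATR, where ARAF was lost without library a, b or c (and was -0.31 without shCont replicate 1) and GRB2 without any of 7 libraries. BRAF, NRAS, MAP2K1, MAP2K2 and MAPK3 passed in none of the comparisons. BRAF stood at 10.7, 16.6 and 22.7 CPM in shCont, 21.2, 20.0 and 17.7 CPM in shp16 and 23.8, 22.9 and 24.3 CPM in shp16+shATR. NRAS stood at 143 to 221 CPM in shCont, 232 to 279 in shp16 and 175 to 182 in shp16+shATR, and shp16 lay above both other groups (adjusted p = 0.0748 and 0.0693). The repressor CIC, whose octamer stands in the DUSP6 window, passed in none of the comparisons. Of 7 inhibitors of the pathway, CIC included, 1 was called lower in shp16 (the ETS repressor ERF, -0.42, adjusted p = 0.0492, lost without any of 7 libraries), and 0 passed in shp16+shATR against shp16. Against shCont, RASA2, a RAS GTPase-activating protein, was higher in shp16+shATR and ERF was lower (0.54 and -0.43). These calls were lost without 6 and 5 of the libraries, respectively, and without shCont replicate 1 RASA2 was 0.32 higher, which passed.

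Paralogs of the 10 genes and the kinases and factors downstream of ERK gave calls in both directions. Of 16 tested paralogs, 4 were called higher and 3 lower in shp16 against shCont. PHLDA2 rose by 1.10 and DUSP9 by 1.04 on the log2 scale, whereas DUSP10, a phosphatase of the stress kinases p38 and JNK, fell by 0.90 (adjusted p = 7.84e-05). These were called in every leave-one-out fit. DUSP16 (0.68), FOS (0.48) and SPRY1 (-0.50) also passed, but were lost without one or another library, of which there were 7 for DUSP16, 2 for FOS and 8 for SPRY1. Adding the ATR hairpin lowered 4 paralogs and raised 0, with FOSB falling by 1.66, PHLDA3 by 0.99, FOS by 0.72 and FOSL2 by 0.44. FOSL2, a relative of FOSL1, therefore fell where FOSL1 rose, and its call was lost without any of 7 libraries. The call of PHLDA3 was lost without library a or b. Against shCont, 1 paralog was higher and 6 were lower in shp16+shATR. The shares over all genes, higher and lower, were 7.23% and 7.59% in shp16 against shCont. For shp16+shATR they were 2.73% and 3.49% against shp16, and 10.9% and 12.7% against shCont.

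Among the AP-1 partners of FOSL1, JUN rose by 0.72 in shp16 (adjusted p = 0.000570) and fell by 0.64 with the ATR hairpin (adjusted p = 0.00357). JUNB passed in no comparison, and JUND was higher only in shp16+shATR against shCont (0.66), lost without shCont replicate 2. Of 7 kinases and factors downstream of ERK, RPS6KA2, the kinase RSK3, fell by 1.66 in shp16 (adjusted p = 1.39e-05). SRF, the serum response factor, was higher there by 0.40 (adjusted p = 0.0486) and lower in shp16+shATR against shp16 by 0.54 (adjusted p = 0.0255), and these calls were lost without 7 and 5 of the libraries, respectively. ELK1, its partner, fell by 0.56 with the ATR hairpin (adjusted p = 0.00614), lost without library a. Against shCont, RPS6KA3 (0.63) was higher in shp16+shATR, and RPS6KA2 (-1.32) and ELK1 were lower, in every leave-one-out fit. Beside these calls, 7.23% of all genes were higher and 7.59% lower in shp16 against shCont. For shp16+shATR the shares were 2.73% and 3.49% against shp16, and 10.9% and 12.7% against shCont. JUN and FOS were thus higher in shp16 and lower again in shp16+shATR, the opposite order to FOSL1.

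The same 2 orders were seen among 13 tested genes that also respond to ERK, of which 2 were called higher and 5 lower in shp16, and 4 higher and 2 lower in shp16+shATR against shp16. Without shCont replicate 1 these counts were 2 and 8, and 4 and 3. With all libraries, the shares over all genes, higher and lower, were 7.23% and 7.59%, and 2.73% and 3.49%. CCND1, which encodes cyclin D1, fell by 1.06 in shp16 (adjusted p = 0.00146) and was higher by 0.70 in shp16+shATR against shp16 (adjusted p = 0.0278). PLAUR, the urokinase receptor, fell by 1.64 and rose by 1.10. LIF, a cytokine, fell by 2.03 and was then higher by 0.76. These followed the order of DUSP6 and FOSL1. EGR1, an immediate-early transcription factor, went the other way, rising by 1.59 in shp16 (adjusted p = 1.15e-06) and falling by 1.29 with the ATR hairpin (adjusted p = 6.22e-05). EPHA2 rose by 1.48 and EPHA4 fell by 0.94 in shp16, and neither passed with the ATR hairpin. TNFRSF12A was higher by 0.97 and MYC lower by 0.45 in shp16+shATR against shp16. The falls and rises in shp16 against shCont named in this paragraph were called in every leave-one-out fit, as was the fall of EGR1. The calls of CCND1, PLAUR, LIF, TNFRSF12A and MYC in shp16+shATR against shp16 were lost without 5, 1, 7, 3 and 6 of the libraries, respectively. Against shCont, 2 of these genes were higher and 5 lower in shp16+shATR, beside 10.9% and 12.7% of all genes.

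**Figure D4:**
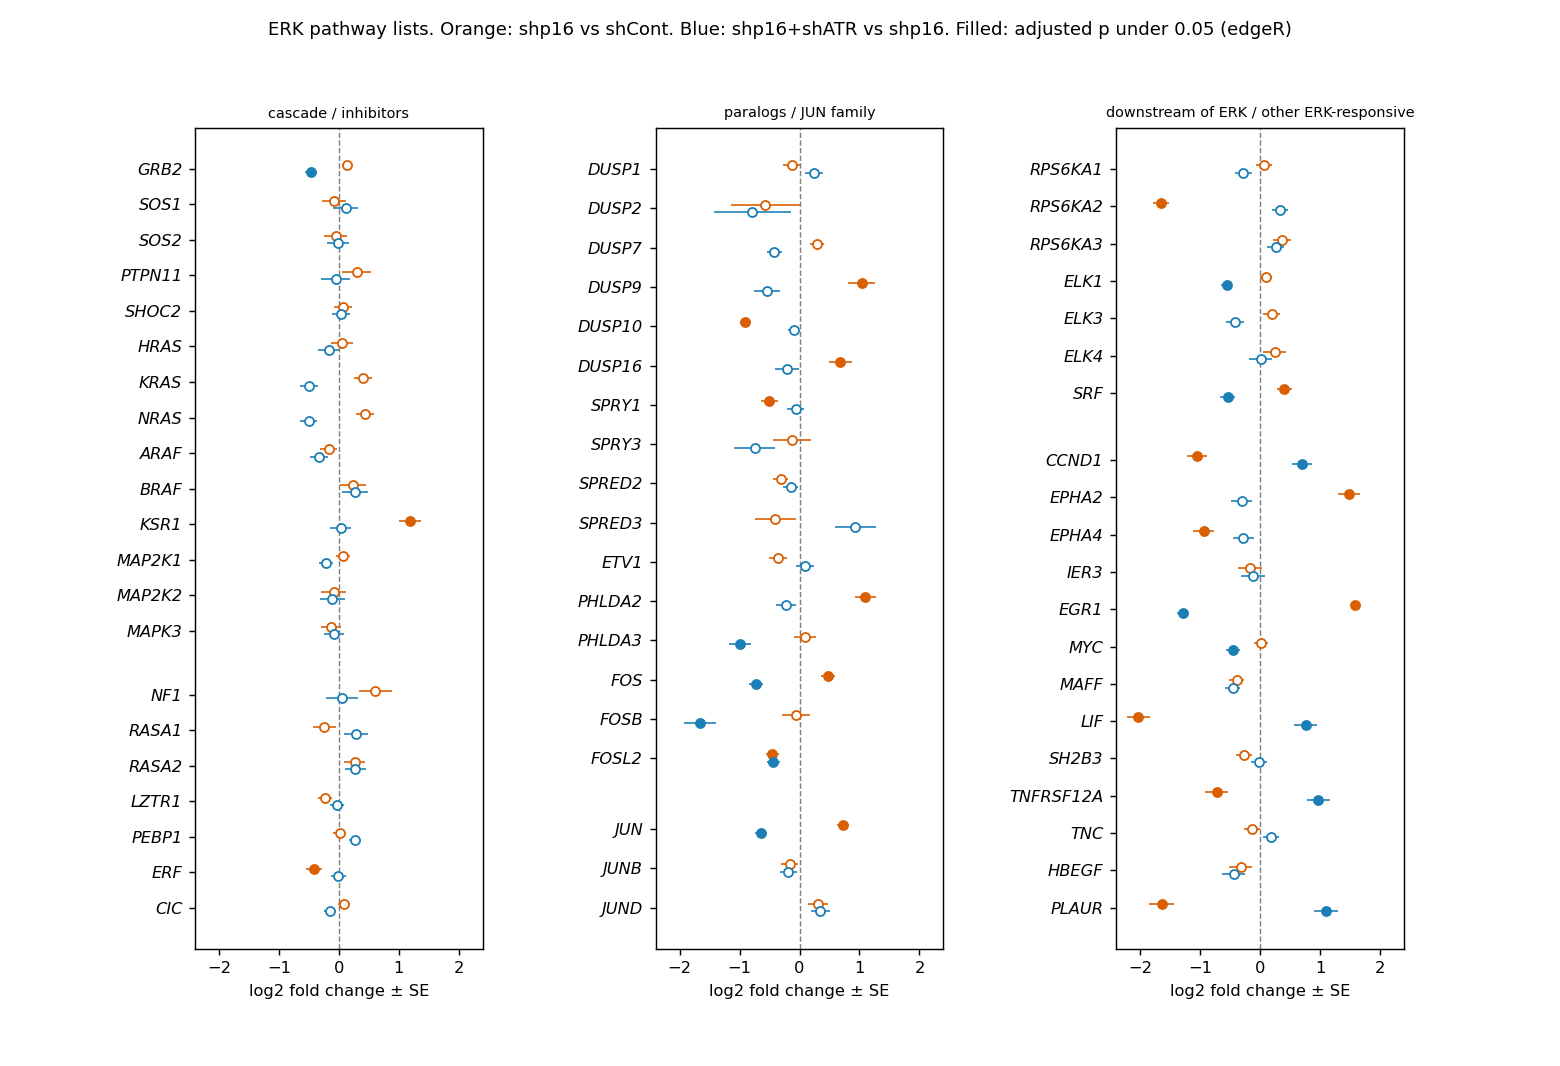
Log2 fold change ± SE (x axis) of most of the genes tested in the ERK pathway lists (y axis), in orange for shp16 vs shCont and in blue for shp16+shATR vs shp16, filled for an adjusted p under 0.05. The panels hold cascade and inhibitors, paralogs and JUN family, and downstream factors with other responsive genes, and CCND1, LIF and PLAUR lie to the left in orange and to the right in blue, whereas EGR1, JUN and FOS lie the other way.

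Outside the pathway lists, the genes nearest to DUSP6 in pattern were C6orf120, PURB and CADPS, with root mean square distances of 0.0775, 0.0894 and 0.0907 between centred log2 CPM over the 9 libraries. The median distance over 10736 genes with a mean of at least 5 CPM was 0.384. Nearest to FOSL1 were a transcript named after its clone, CYB5D2 and C8orf58, at 0.0584, 0.0773 and 0.0818, beside a median of 0.404. Libraries of a group share their source, and nearness in pattern is a description only.

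The number of members called depended on shCont replicate 1. Without it, 6 of the 10 were called in shp16 against shCont, 1 higher (ETV4) and 5 lower, with SPRY2 (-0.31, adjusted p = 0.0405) and PHLDA1 (-0.22, adjusted p = 0.0305) joining DUSP6, SPRY4 and FOSL1. In shp16+shATR against shp16, 5 were then called higher, with DUSP5 (0.39), SPRED1 (0.32) and SPRY2 (0.29) joining DUSP6 and FOSL1. Over all genes, calls rose from 2339 to 4192 (2170 higher and 2022 lower) and from 981 to 3223 (1447 higher and 1776 lower) without that library. Leaving out shCont replicate 1 and shp16 replicate 1 together gave 7 members in the former comparison and 5 in the latter. Calls over all genes then rose to 5264 (2726 higher and 2538 lower) and 4304 (2001 higher and 2303 lower). Conversely, shp16 replicates 2 and 3 were the most alike of the pairs within a group, and with their counts summed into 1 library 1 member was called in each comparison, DUSP6 in those that involve shp16 and SPRED1 in shp16+shATR against shCont. DUSP6 was called in every leave-one-out fit of both comparisons with shp16, at log2 fold changes of -0.64 to -0.48 and of 0.57 to 0.68.

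**Figure D5:**
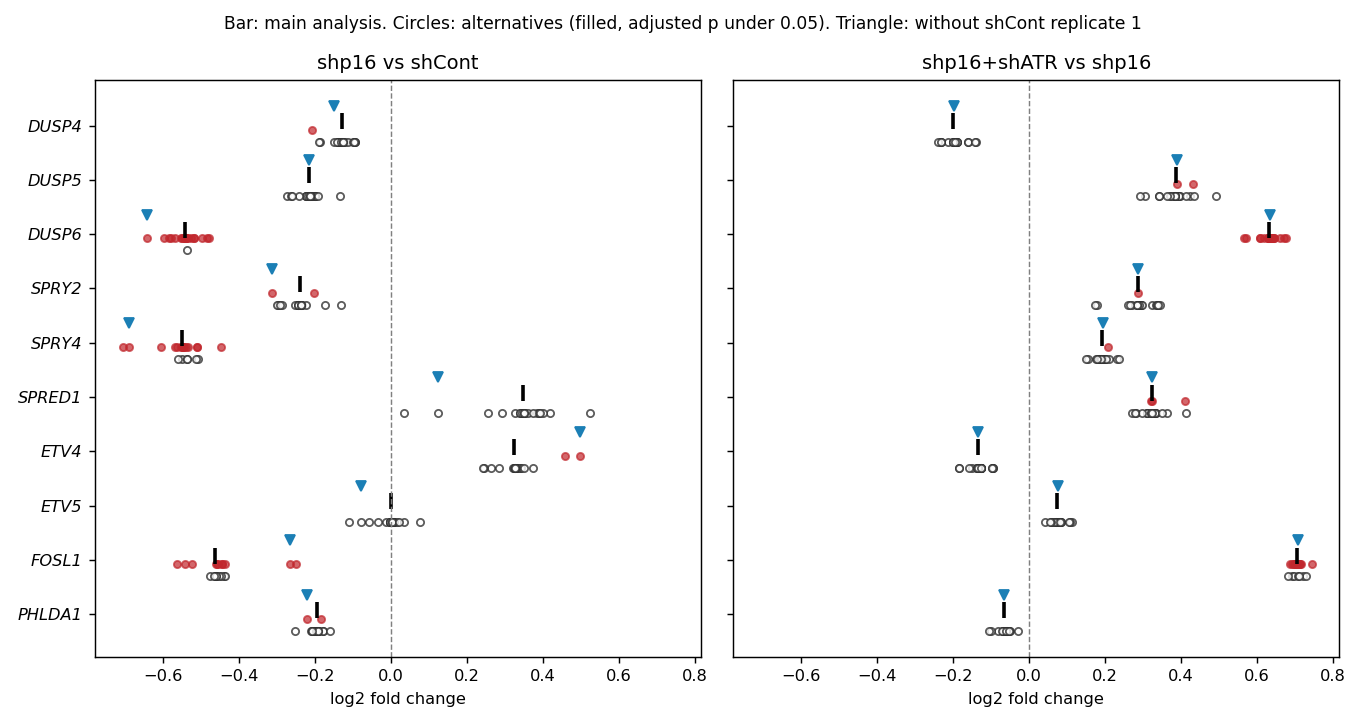
Log2 fold change (x axis) of the 10 genes (y axis) in shp16 vs shCont and shp16+shATR vs shp16, with a black bar for the reported value, circles for each alternative analysis (other thresholds apart), filled where the adjusted p is under 0.05, and a blue triangle for the value without shCont replicate 1. The circles of DUSP6 stay filled in all alternatives but 1 on the left and in all on the right, and leaving out shCont replicate 1 moves FOSL1 to -0.27 and ETV4 to 0.50 in shp16 vs shCont.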

How the data were processed

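RNA from 9 SKMEL28 libraries was sequenced, with 3 libraries for each of shCont, shp16 and shp16+shATR. The submitters' processing notes name STAR 2.6.1 and GRCh38; the counting program is not given in the sources used here. The gene starts in the table equal those of GENCODE on GRCh38 for 0 of the 10 members, although all 10 spans do, so positions are given from that annotation by gene identifier. The authors deposited raw read counts per gene and FPKM values, which equal the counts scaled by length and library total. Since the shp16+shATR columns of counts carry an identical header, their libraries are named a, b and c here. The FPKM columns are numbered by replicate and equal the scaled counts of a, b and c in that order. The replicate block on counts was run for shp16 against shCont only.

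Counts were normalized by TMM, filtered with filterByExpr and tested over 15776 genes with edgeR 4.0.16 (R 4.3.3) by its quasi-likelihood test, with all 9 libraries in 1 fit and a Benjamini-Hochberg adjusted p under 0.05. CPM values are TMM-normalized and FPKM values were used for levels between genes. Kits were not stated as stranded, so overlapping antisense reads cannot be told apart. The code was tested on simulated data. Whether libraries with the same replicate number deviate together was checked, and they did not in every pair (correlations from -0.30 to 0.29). With 3 libraries per group, this check cannot exclude that a replicate number marks a shared culture or batch. Alternatives were DESeq2 1.42.0, limma 3.58.1 on log2(FPKM + 1) and log2(FPKM + 0.1), other normalizations, filters and thresholds, a replicate block and each library left out. The 10 genes and the other lists were chosen with earlier results of these data known. Named genes are the 10 members, CDKN2A, ATR, cascade genes by role and up to 6 called genes by size of fold change for each list and comparison. Some genes of the cascade are not reported here.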

Additional observations from a re-analysis of the deposited data

How the results depend on the processing

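Of 670 values of single members under an alternative, 581 kept direction and side of the threshold, 26 passed where the reported value had not, 48 no longer passed and 15 changed sign, none of which passed as reported or under the alternative. Members called in shp16 against shCont numbered 3 as reported, 1 with only the groups compared, 0 with the replicate block on counts, 1 at an adjusted p under 0.01 and 0 at an absolute log2 fold change of at least 1; with 1 library left out they ranged from 1 to 6. In shp16+shATR against shp16 the 2 became 3 with only the groups compared, 1 and 0 at those thresholds and 1 to 5 with 1 library left out; against shCont the 2 became 3 with DESeq2, 4 with upper-quartile normalization, 1 with no filter, 0 at either threshold and 0 to 6. The alternatives chosen after seeing the data gave 7, 5 and 6 without shCont 1 and shp16 1 and 1, 1 and 1 with shp16 2 and 3 summed, where calls over all genes were 5264, 4304 and 7130, and 1368, 399 and 3246, in the same order. The members' median in shp16+shATR against shCont was -0.00633 without shCont 1 and -0.00998 without both, within a range of -0.00633 to 0.118 with 1 library left out. That of shp16+shATR against shp16 came to 0.277 with upper-quartile normalization, 0.191 without both libraries and 0.194 to 0.249 with 1 left out. Under the replicate block on counts DUSP6, SPRY4 and FOSL1 were -0.54, -0.54 and -0.44 (adjusted p = 0.0905, 0.158 and 0.218) in shp16 against shCont. Whether the replicate numbers pair the samples is not known, so the fits with and without the block both stand. The block on log2 FPKM changed the call of FOSL1 alone among these genes (adjusted p = 0.0707). Changes of sign were those of DUSP6 (-0.00843 to 0.147 with 1 library left out and -0.0117 without both), SPRY2 (-0.0251 to 0.111 and -0.0277) and ETV5 (-0.00423 to 0.147 and -0.00824) in shp16+shATR against shCont, and of ETV5 in shp16 against shCont, at -0.0567 with upper-quartile normalization, -0.0121 with library size only, -0.00394 and -0.00389 with limma at either pseudocount, -0.00394 with limma and the replicate block, -0.0793 to 0.0752 with 1 library left out and -0.112 without both. Over all genes, 2339 calls in shp16 against shCont became 1186 with only those groups, 423 with the block on counts, 1513 with the block on FPKM and 1344 to 4192 with 1 library left out; 981 in shp16+shATR against shp16 became 1508 with DESeq2, 2878 with only those groups, 481 with the block and 292 to 3223; and 3724 against shCont became 2354 to 5395. Calls higher and lower were 1141 and 1198, but 922 and 1475 with upper-quartile normalization, in shp16 against shCont, and 430 and 551, but 533 and 451, in shp16+shATR against shp16. Of 1227 values of named list genes under an alternative, 238 no longer passed and none changed sign. These genes were named because they passed as reported, so none could gain a call, and uncalled list genes are not covered. The cause of these shifts was not tested.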
